A study of Rattus norvegicus with 3 samples.

Results

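The genes described here encode heparin-binding and other growth factors, their receptors and their binding proteins, read in transplanted rat kidneys. They were chosen by gene symbol: members of the FGF, EGF, HGF, VEGF, angiopoietin, PDGF and IGF families, with pleiotrophin, midkine and the neuropilins. Of 14218 genes named on the array, 77 matched, with 116 probe sets between them. The symbols also caught 5 genes that share a name only, namely Fgfr1op2, Igf2bp1, Igf2bp2 and Igf2bp3, which encode intracellular proteins, and Flt3, a receptor of blood cell precursors. The pattern for Ctgf matched nothing, because the annotation calls that gene Ccn2, and Ccn2 is given with the related genes below.

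The kidneys came from male Wistar rats weighing 370 to 508 g and modelled donation after cardiac death. Each kidney had 20 min of warm ischaemia, was kept cold in University of Wisconsin solution for about 17 h and was then perfused from the femoral artery of a living recipient for 5 h 43 min on average. Recipients were infused with normal saline at 1 ml/h (control), with heparin at 100 U/ml/h, or with peptide 2 at 0.5 mg/ml, a short peptide based on the part of the chemokine CCL5 that binds heparin. The series' design text calls the treatments a bolus and the protocol an infusion. No heparin was used as an anticoagulant in any group, each group had 7 recipients, and the study asked whether the 2 agents are anti-inflammatory in this setting. RNA of 3 kidneys per group, picked for RNA quality, was pooled and read on 1 array, so there is no replicate error for any difference below and no test was made.

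Growth factors of these families bind receptor tyrosine kinases at the cell surface. Many of them, such as FGFs, HB-EGF, HGF, long forms of VEGF-A, midkine and pleiotrophin, also bind heparan sulfate, the cell-surface relative of heparin, which stores them in the matrix and, for FGFs, forms part of the signalling complex. In the kidney they act between podocytes, endothelium and tubules, and several are made or shed by injured tubules during repair.

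Values are log2 expression values after GCRMA, a method that corrects each probe's background and summarises the short probes of a probe set. A gene is represented by its probe set with the highest mean. A gene counted as measured when it reached the median of all probe sets on the arrays compared (4.14 in control, 4.16 in heparin and 4.14 in peptide). Values of different genes come from different probes and are not set against each other. Markers of the kidney were present: 9 of 9 proximal tubule markers and 7 of 7 collecting duct markers were measured. The arrays shared a lowest value of 2.18, near which (within 0.01) lay 29.5% to 30.9% of probe sets. Probe sets at the 3' and 5' ends of the beta-actin transcript, whose gap is a sign of RNA integrity, differed by 2.95 on the heparin array against 2.33 in control and 2.34 in peptide, and its part in the differences below was not tested. The gap of GAPDH lay between 0.32 and 0.37 on the 3 arrays.

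Of the 77 genes, 44 were measured on all 3 arrays, 20 sat at the lowest value on all 3, and 13 were below the median on at least 1 array. No gene was well above the median on 1 array and below it on another, so no bounds are given. Of 18 secreted FGFs, 2 were measured (Fgf1 and Fgf9) and 13 were at the lowest value. Fgf2, the basic FGF, read 2.36 on every array. Hgf, the ligand of Met, read 2.54 in control, 3.25 in heparin and 2.54 in peptide, under the median on each. Fgf23, a phosphate-regulating hormone made in bone, read 3.66, 3.03 and 2.91. Angptl8 read 3.93 in control and peptide and 4.23 in heparin, just over that array's median. Of the 44 measured genes, 8 had identical values on all 3 arrays (18.2%, against 22.5% of all 9231 genes measured on all 3): Angptl2, Fgfr1, Fgfrl1, Flt4, Igf2bp2, Igfbp5, Tie1 and Vegfb. Identical values can come from the summarisation and do not show equal abundance.

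**Figure D1:**
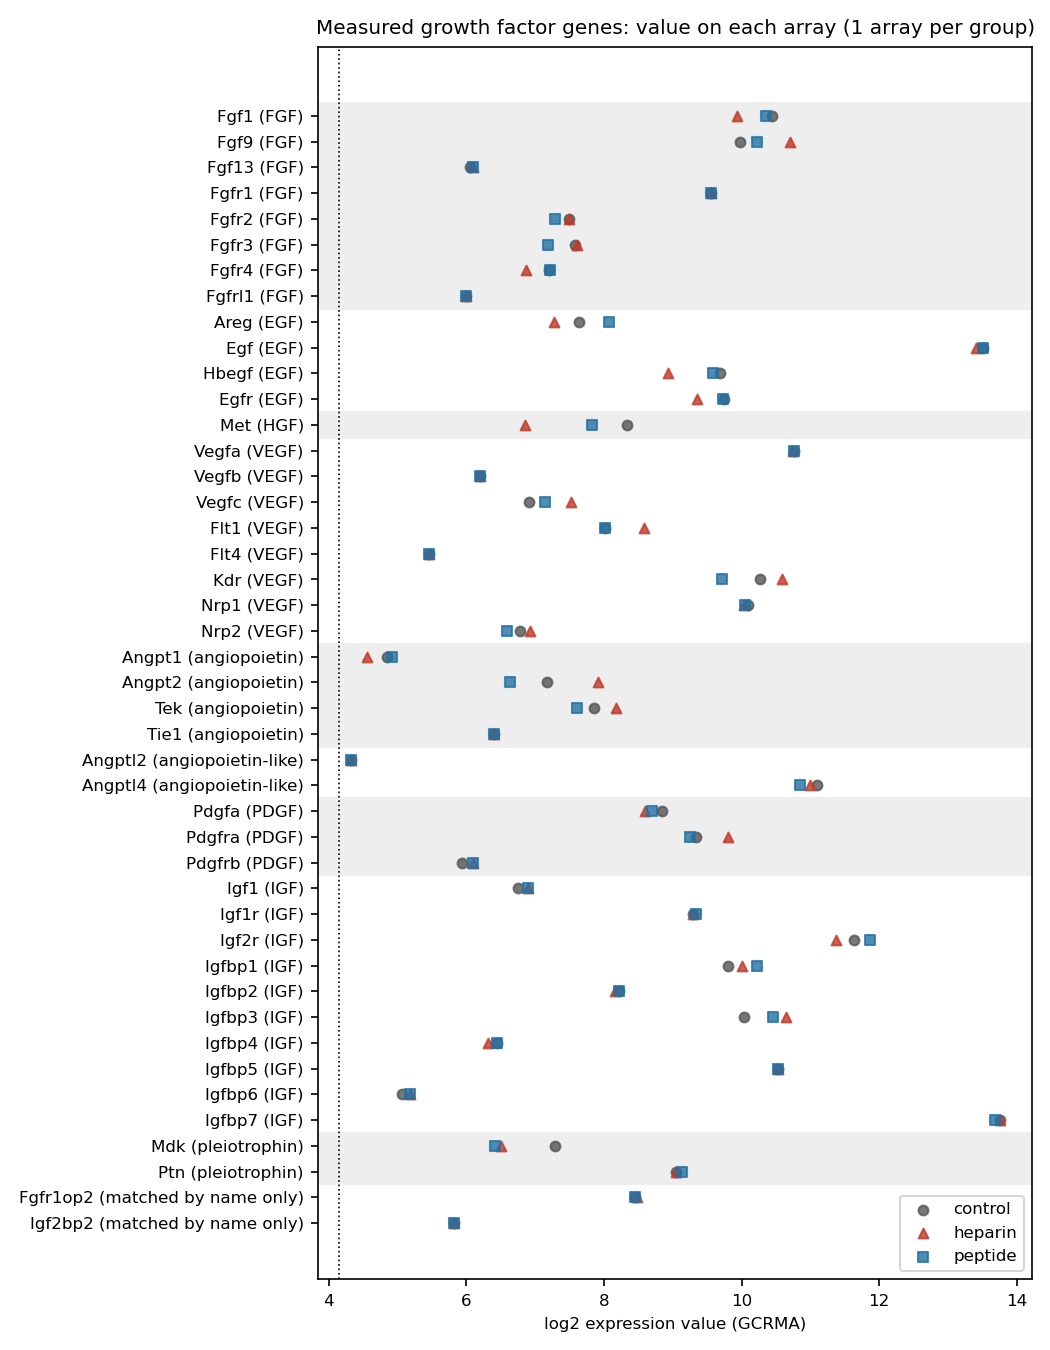
Values of the 44 measured genes on the control (circle), heparin (triangle) and peptide (square) arrays, as log2 expression values on the horizontal axis, with the genes by family on the vertical axis. The dotted line marks the mean of the 3 array medians. For most genes the 3 symbols nearly coincide, and the widest gap is that of Met, from 8.33 in control to 6.85 in heparin.

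Against control, the heparin pool had less Met, Mdk and Hbegf and more Angpt2, Fgf9, Igfbp3 and Vegfc, each by at least 1.5-fold. At 2-fold, 0 of the 44 measured genes were higher and 1, Met, was lower, where 1.06% and 0.747% of all 9236 measured genes were. At 1.5-fold, 4 were higher and 3 lower, where 3.04% and 3.37% of all measured genes were (281 and 311 genes, or 339 and 241 with differences centred on the median of the brighter genes that differed). Their median difference was 0.00, as it was for all genes. Counting any difference, 16 were higher, 16 lower and 12 identical, whereas among all measured genes 2374 were higher and 4081 lower. The median absolute difference was 0.14 for these genes and 0.08 for all measured genes.

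The peptide pool stood closer to control. At 2-fold, 0 of 44 genes were higher and 0 lower, where 0.723% and 0.119% of all 9268 measured genes were. At 1.5-fold, 0 were higher and 1, Mdk, was lower, where 2.11% and 0.917% of all genes were. The median difference was again 0.00 for these genes and for all genes, with 14 of these genes higher, 17 lower and 13 identical, against 2963, 2639 and 3666 of all measured genes. The median absolute difference was 0.092 for these genes and 0.034 for all measured genes. The 2 comparisons share the control array, so a high or low control value moves both.

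Set directly against each other, the heparin pool had more Angpt2 and Kdr than the peptide pool and less Met, Areg and Hbegf. At 2-fold, 1 of 44 genes (Angpt2) was higher and 0 lower, where 0.281% and 0.844% of all 9240 measured genes were. At 1.5-fold, 2 were higher and 3 lower, where 1.62% and 4.57% of all measured genes were (150 and 422 genes, or 195 and 321 with centring). The median difference was 0.00 for these genes and for all genes, and the median absolute difference was 0.13 and 0.084. This comparison uses no control array, but it shares each treated array with one of the others.

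**Figure D2:**
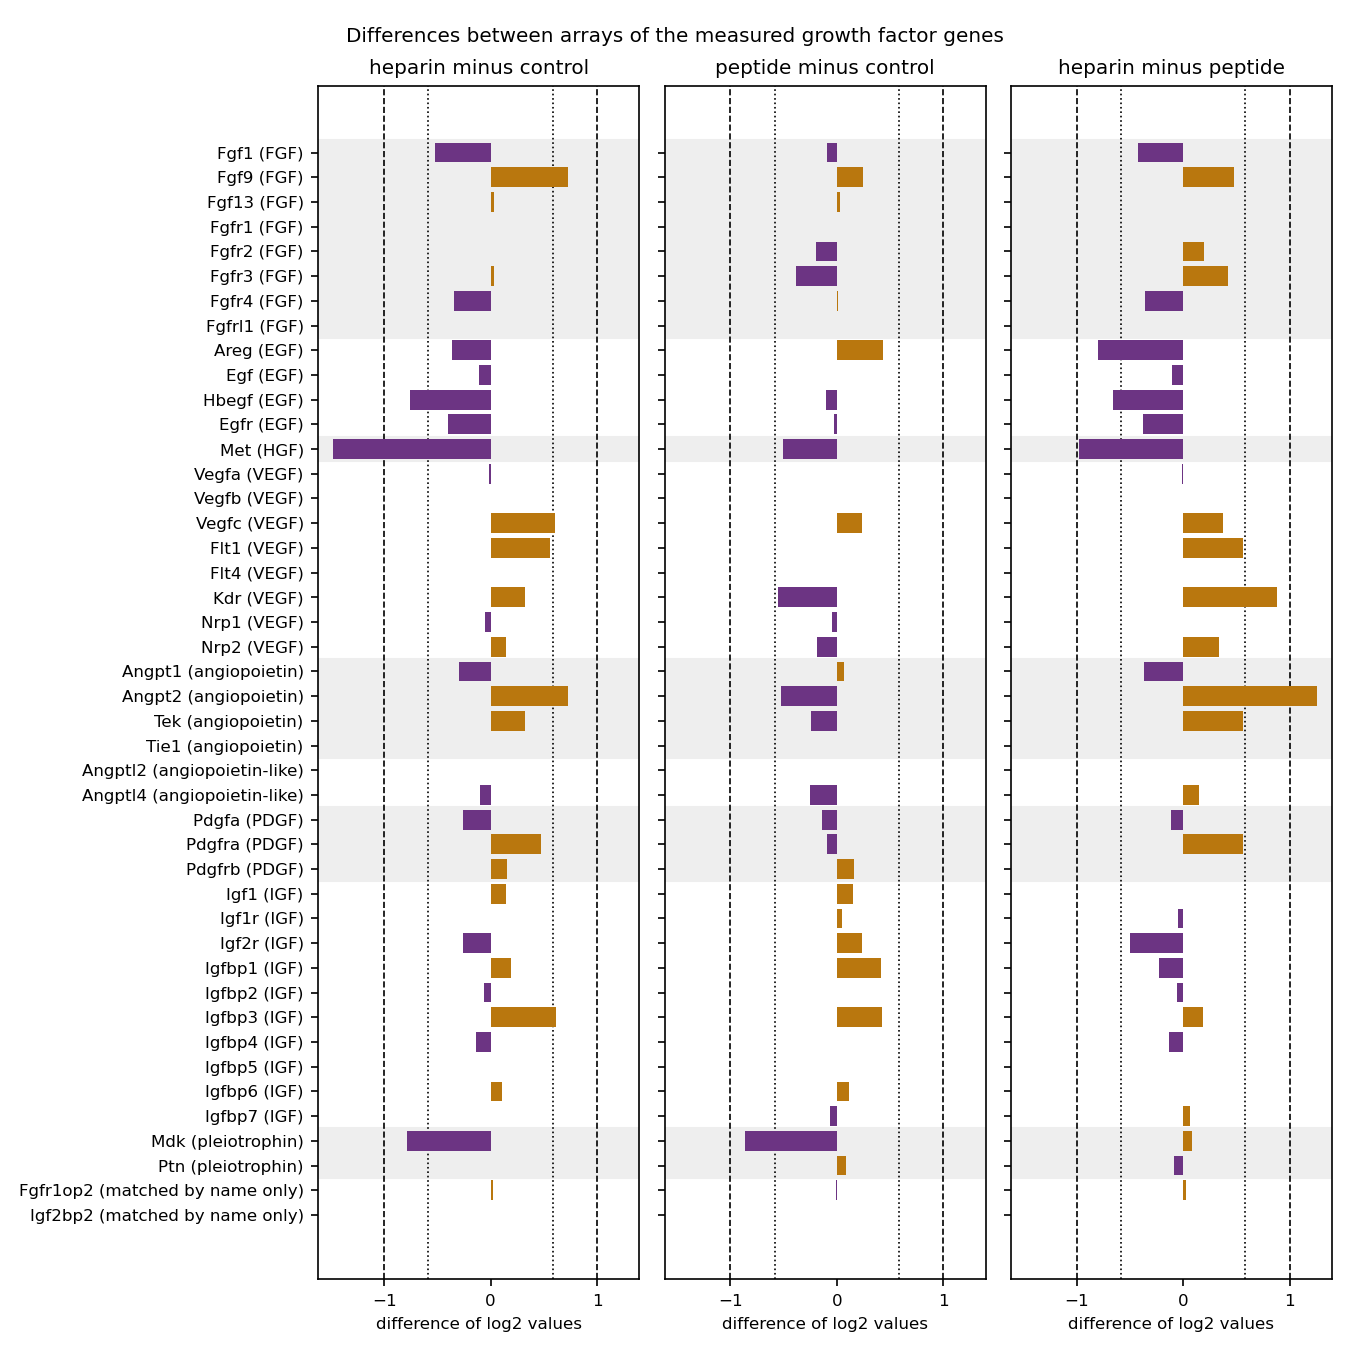
Differences of log2 values for the 44 measured genes, 1 bar per gene, in heparin minus control, peptide minus control and heparin minus peptide. Orange bars are positive and purple bars negative. Dotted lines mark 1.5-fold and dashed lines 2-fold. Met passes the 2-fold line in the first panel and Angpt2 in the third.

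**Figure D3:**
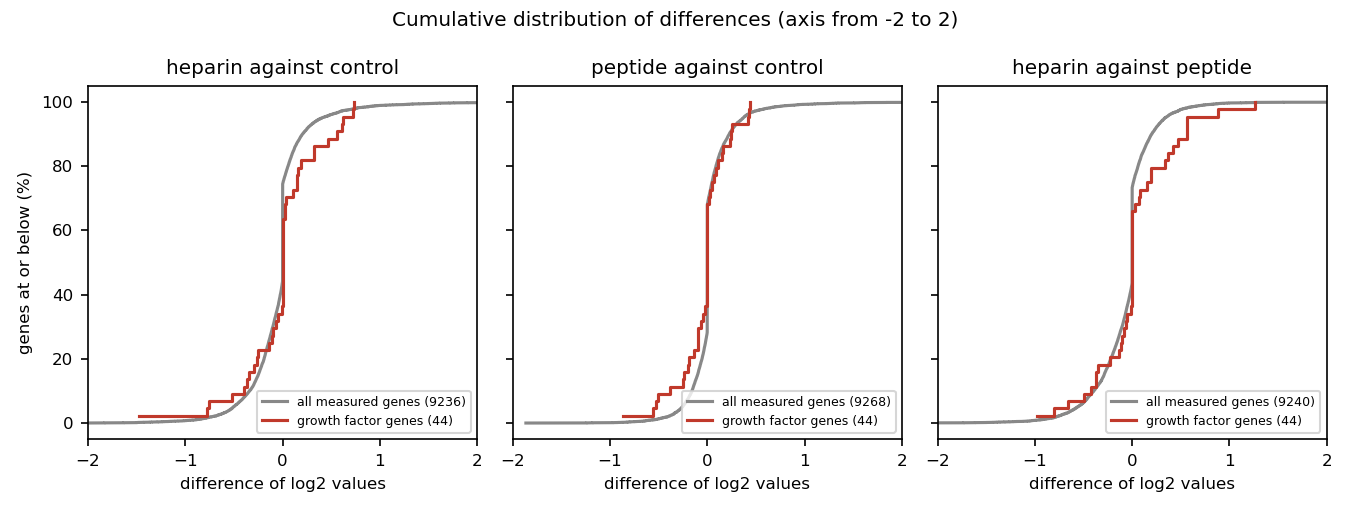
Share of genes (%) at or below each difference of log2 values, for all measured genes (grey) and the 44 growth factor genes (red), in each comparison. The vertical step at 0 is made by genes with identical values, 30.1%, 39.6% and 29.6% of all measured genes in the 3 panels. The red lines end inside the grey ones: the growth factor genes ran from -1.48 to 0.73, from -0.86 to 0.43 and from -0.98 to 1.26.

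Met, the receptor tyrosine kinase for HGF, which drives tubular repair, differed most from control. It read 8.33 in control, 6.85 in heparin and 7.82 in peptide, so both treated arrays were below control and heparin was the lowest. The log2 difference was -1.48 for heparin (2.79-fold lower), and 19 of 9236 measured genes, Met included, were at least as low (0.206%). It was -0.50 for peptide against control (1.42-fold lower) and -0.98 for heparin against peptide. Met has 1 probe set here, so no second reading of it was available. Hgf was under the median on every array, which leaves the ligand's level unknown. Of the HGF activation genes on the related list, Spint2, an inhibitor of the HGF activator, read 11.47, 11.25 and 11.65 in control, heparin and peptide, and Spint1, an inhibitor of the same protease, read 9.29 on each. Hgfac, the gene of that activator, was under the median at 2.41 on each array. St14, also on that list, read 9.75 in control and 9.86 in both treated pools.

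The EGF family genes caught by the symbol rule were lower on the heparin array. All 4 measured ones were below control and below peptide there, with medians of -0.38 and -0.52, where the medians of all genes were 0.00. Of all measured genes, 4081 of 9236 were below control and 4031 of 9240 below peptide. Tgfa, a ligand of the EGF receptor outside the rule, read 7.53 in control and 7.30 in both treated pools. Hbegf, the heparin-binding EGF-like factor shed by stressed tubule cells, read 9.69 in control, 8.93 in heparin and 9.59 in peptide. Heparin was thus the low array, by 1.69-fold against control and 1.58-fold against peptide, while peptide and control were 1.07-fold apart. Amphiregulin, Areg, another shed ligand of the EGF receptor, split the treatments. It read 7.63 in control, 7.27 in heparin and 8.07 in peptide, which puts heparin 1.74-fold under peptide with control between them. Their receptor, Egfr, read 9.75 in control, 9.35 in heparin and 9.73 in peptide. A second measured probe set of Egfr gave a heparin difference of -0.39 beside -0.40, and the remaining one sat at the lowest value. Egf itself, a product of the distal nephron, read 13.51, 13.41 and 13.51. Distal and connecting tubule markers also read low on the heparin array. All 4 measured ones were below control there, with a median of -1.28, from -0.34 for Slc12a3 to -1.83 for Calb1. Klk1 differed from control by -1.68 in heparin. Of the 4, 1 was higher than control in peptide (Klk1, by 0.81) and 3 were lower, with a median of -0.17. Their summed unlogged level over 6 genes, in which the brightest weigh most, was 4676 in control, 2026 in heparin and 5044 in peptide. Pvalb was at the lowest value on all 3 arrays. The part of these tubule cells in the EGF family values was not tested. Here and below, fewer cells of a type and less RNA per cell cannot be told apart.

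Midkine was low in both treated pools. Mdk encodes a heparin-binding cytokine that attracts leukocytes, and it read 7.29 in control, 6.50 in heparin and 6.42 in peptide. Both treated arrays were below control and close to each other, by 1.72-fold and 1.82-fold, and 23 of 9268 measured genes were at least as low in peptide. The 2 differences rest on the same control value and on 1 probe set. Pleiotrophin, Ptn, its sister cytokine, read 9.05 in control and heparin and 9.14 in peptide. Of their receptors, Ptprz1 and Alk were at the lowest value on all arrays, and Lrp1, an endocytic receptor that binds midkine, read 7.82 in control and peptide and was 0.18 higher in heparin.

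Among the FGFs, both measured secreted ligands differed on the heparin array, in opposite directions. Fgf9 read 9.98 in control, 10.70 in heparin and 10.23 in peptide, so heparin was highest, 1.65-fold over control. Its second measured probe set read 8.46, 8.67 and 8.72, with a heparin difference of 0.21 beside 0.72 and with peptide, not heparin, on top. Averaging the sets gave 0.47, under 1.5-fold. Fgf1, the acidic FGF, read 10.44 in control, 9.93 in heparin and 10.35 in peptide on its brightest probe set. That is 1.43-fold lower with heparin, under the 1.5-fold mark, but its other 2 measured probe sets differed more. They gave 7.57, 6.19 and 6.74, and 7.10, 5.98 and 6.44, in control, heparin and peptide. On these sets heparin was lower by 2.60-fold and 2.17-fold, and peptide by 1.77-fold and 1.58-fold. All 3 sets had the order control, peptide, heparin from high to low. When the probe sets of a gene were averaged, Fgf1 joined Met among the genes at least 2-fold lower in heparin. Fgf13, an FGF relative that stays inside the cell, read 6.06 in control and 6.09 in both treated pools.

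The FGF receptors stayed within 1.5-fold in every comparison. Fgfr1 read 9.55 on all arrays, and its other measured probe set differed by -0.11 in heparin and 0.07 in peptide. Fgfr2 read 7.49 in control and heparin and 7.29 in peptide, and its other probe sets were under the median, at 2.18 to 2.46. Fgfr3 read 7.58, 7.61 and 7.19 in control, heparin and peptide, with the peptide array the low one, and its second probe set was at the lowest value. Fgfr4, the receptor used by endocrine FGFs, read 7.20, 6.86 and 7.21, with heparin the low one. The decoy-like receptor Fgfrl1 read 6.00 throughout.

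**Figure D4:**
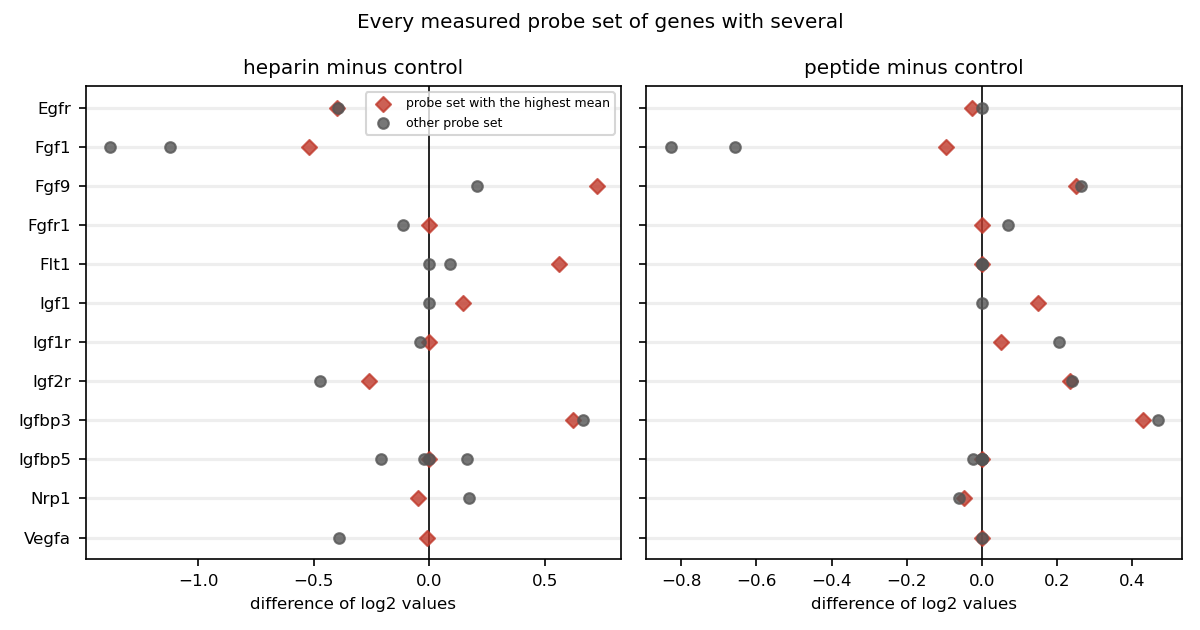
Every measured probe set of the 12 genes that have several, with the difference of log2 values from control on the horizontal axis, for heparin and peptide. Red diamonds are the probe set used for the gene and grey circles the others. The 3 sets of Fgf1 all lie below 0, from -1.38 to -0.52 with heparin, and those of Igfbp3 lie together at 0.62 and 0.67. With heparin, the sets of Igfbp5 and Nrp1 fall on both sides of 0.

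Of the 8 measured VEGF genes 4 were higher and 2 lower with heparin than with peptide, and of the 4 measured angiopoietin genes 2 were higher and 1 lower. Of all 9240 measured genes 2473 were higher and 4031 lower. Angpt2 and Kdr were the ones past 1.5-fold. Angpt2, which endothelial cells release to loosen vessel contacts, read 7.17 in control, 7.91 in heparin and 6.64 in peptide. Heparin was 1.66-fold above control and peptide 1.44-fold below it, which makes 2.40-fold between the treatments, and 15 of 9240 measured genes were at least as high there. Its receptor Tek (Tie2) lay in the same order, at 7.86, 8.18 and 7.61 in control, heparin and peptide. Angpt1, the activating ligand of Tek made by pericytes and podocytes, had the opposite order, at 4.85, 4.55 and 4.92, near the median. Tie1, the partner receptor of Tek, read 6.40 on each array. Ptprb, the endothelial phosphatase that holds Tek inactive, read 9.89, 10.47 and 9.72.

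The VEGF receptors differed one by one. Kdr (VEGFR2), the main receptor for VEGF-A on endothelium, read 10.27 in control, 10.59 in heparin and 9.71 in peptide, 1.84-fold apart between the treatments. Control lay between them, and the second probe set of Kdr was at the lowest value on every array, so that averaging both sets gave 0.44, under 1.5-fold. Flt1 (VEGFR1), which traps VEGF-A, read 8.02 in control, 8.58 in heparin and 8.02 in peptide. That difference of 0.56 belongs to 1 of 3 measured probe sets, since the others gave 0.09 and 0.00. Flt4 (VEGFR3), the receptor for VEGF-C, read 5.46 throughout. The co-receptor Nrp1 read 10.09, 10.04 and 10.05, and Nrp2 read 6.78, 6.92 and 6.59. For Nrp1 a second probe set differed by 0.17 in heparin, opposite in sign to -0.05.

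Of the VEGF ligands, Vegfc was the one past 1.5-fold in any comparison. Vegfc, a growth factor of lymphatic vessels, read 6.91 in control, 7.52 in heparin and 7.15 in peptide, with heparin 1.53-fold over control. The difference was 0.50 when 32 was added to the unlogged values. Vegfa, made by podocytes and tubules, read 10.76, 10.75 and 10.76. Its other measured probe set read 8.02, 7.63 and 8.02, so that the 2 sets do not give the same heparin difference (-0.01 and -0.39). Vegfb read 6.20 on each array.

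Endothelial and podocyte markers give the background for these vascular genes. Of 7 measured endothelial markers, 4 were higher and 2 lower in heparin than in peptide, with a median of 0.15. Against control 3 were higher and 3 lower in heparin, and 2 higher and 2 lower in peptide, with a median of 0.00 in each. Their summed unlogged level over 8 genes was 3265 in control, 3772 in heparin and 3166 in peptide. None of the 8 was at the lowest value. Emcn, a sialomucin of venous and capillary endothelium, was 0.51 higher in heparin than in control, while Pecam1, the junction protein CD31, was identical at 8.65. Vwf went the other way, at 6.38 in control, 6.22 in heparin and 6.73 in peptide, with heparin the low array and peptide the high one. Podocyte markers were 5 of 6 higher in heparin than in peptide and than in control, with medians of 0.77 and 0.52. In peptide all 6 were below control, with a median of -0.14. Their summed levels over 6 genes were 4969, 5508 and 4594 in control, heparin and peptide, with 0 at the lowest value. Cd2ap, the brightest of them, weighs most in these sums. It read 11.53, 11.33 and 11.45 and was the 1 marker lower in heparin. Wt1, a podocyte transcription factor, read 7.48 in control and 6.68 in peptide and was 0.52 over control in heparin, and so had the order of Angpt2 and Kdr. The part of either cell type in the vascular differences was not tested.

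**Figure D5:**
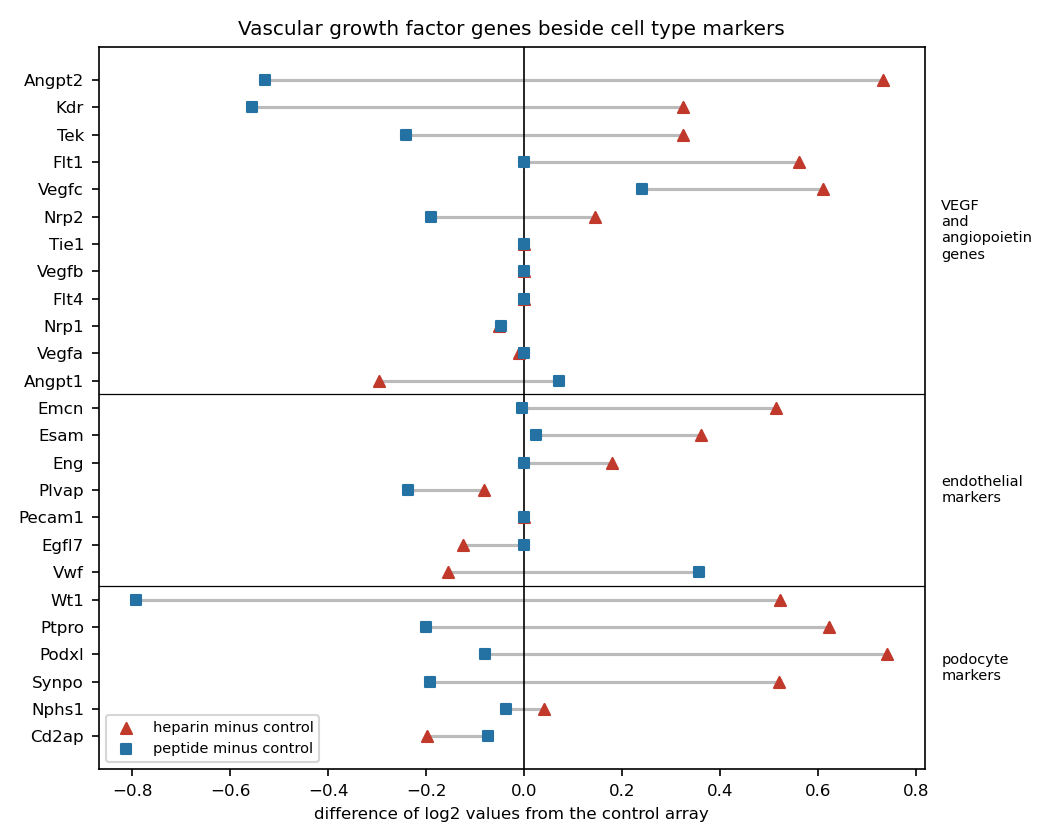
Differences of log2 values from the control array for heparin (triangle) and peptide (square), with a line joining the 2 for each gene, in the measured VEGF and angiopoietin genes, the endothelial markers and the podocyte markers. Angpt2 runs from -0.53 with peptide to 0.73 with heparin and Wt1 from -0.79 to 0.52, whereas Pecam1, Tie1, Flt4 and Vegfb lie at 0 for both.

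Of the 3 measured PDGF genes, 0 were past 1.5-fold in any comparison, and the widest gap was that of Pdgfra. Pdgfra, which marks interstitial fibroblasts, read 9.34 in control, 9.81 in heparin and 9.25 in peptide, 1.48-fold apart between the treatments. Pdgfrb, the receptor of pericytes and mesangium, read 5.94 in control and 6.09 in both treated pools. The ligand gene Pdgfa read 8.84, 8.59 and 8.70. Pdgfc and the related Pdgfrl were under the median at 3.99 and 3.77 on each array, and Pdgfd was at the lowest value. Fibroblast, mesangial and smooth muscle markers were 6 of 8 higher in heparin than in peptide, with a median of 0.44. Against control, 5 were higher and 2 lower in heparin (median 0.28), and 2 higher and 3 lower in peptide (median 0.00). Their summed levels over 10 genes were 1938, 2885 and 2262 in control, heparin and peptide, with 0 at the lowest value. Dcn differed from control by 0.95 in heparin and 0.47 in peptide, and Col1a2 by -0.13 and -0.54. Platelets also carry PDGF. Their 4 measured markers were lower in both treated pools, with summed levels over 6 genes of 1525, 863 and 866 and Gp9 at the lowest value. The part of these cells in the PDGF values was not tested.

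In the IGF system, of 10 measured genes 1 (Igfbp3) was past 1.5-fold in heparin against control and 0 in the other comparisons. Igfbp3, the main carrier of IGFs in blood, which endothelium also makes, read 10.03 in control, 10.65 in heparin and 10.46 in peptide. Both treated arrays were above control, by 1.54-fold and 1.35-fold, and a second probe set gave 8.96, 9.63 and 9.43 in the same order. Igfbp1, a stress-induced binding protein, read 9.81 in control and 10.23 in peptide (1.34-fold higher), with heparin between them at 0.19 over control. Of the other measured binding proteins, Igfbp2, Igfbp4, Igfbp5, Igfbp6 and Igfbp7, differences from control ran from -0.13 to 0.11 on the brightest probe set of each. Igfbp5 read 10.53 on each array, while its other measured probe sets differed by -0.21 to 0.16 with heparin. Igfbp7, a matrix and vessel protein, read 13.75 in control and heparin and 13.68 in peptide. Igf1 read 6.75 in control and 6.89 in both treated pools, and its receptor Igf1r read 9.29, 9.29 and 9.34. Igf2r, the mannose 6-phosphate receptor that clears IGF-II, read 11.64 in control, 11.37 in heparin and 11.87 in peptide. Heparin was the low array and peptide the high one, and the second probe set gave a difference of -0.71 between the treatments (1.64-fold) beside -0.50 (1.41-fold). With both sets averaged, Igf2r was past 1.5-fold there. Igf2 was under the median on all its 4 probe sets.

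Angptl4, an inhibitor of lipoprotein lipase induced by fasting and hypoxia, read 11.10 in control, 11.00 in heparin and 10.85 in peptide. Of the genes matched by name only, the measured Fgfr1op2 and Igf2bp2 differed by no more than 0.03 between any arrays. By role, 1 of 18 measured receptors (Met) and 5 of 14 measured ligands (Angpt2, Fgf9, Vegfc, Hbegf and Mdk) were past 1.5-fold in heparin against control, where 6.41% of all measured genes were. Of 7 measured binding proteins, 1 (Igfbp3) was.

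Related genes outside the symbol rule were read from a list of other ligands, receptors and regulators. On the array were 56, and 27 of them could be compared between heparin and control. Of these 1 was lower by 2-fold or more and 0 higher, where 0.747% and 1.06% of all measured genes were. The median of the 27 was 0.00. The lower one was Apln, the gene of the endothelial peptide apelin, at 7.39 in control, 5.92 in heparin and 5.53 in peptide. Neuregulin-1, Nrg1, an EGF-like ligand, read 9.02 in control and 8.35 in heparin, with a peptide difference of -0.02, low on the heparin array like Hbegf. Axl, the receptor of Gas6, read 9.19, 9.77 and 9.11, and the endothelial proteoglycan Esm1 read 8.97, 9.54 and 8.92, both high on the heparin array. Ccn2, the connective tissue growth factor, read 13.49, 13.32 and 13.73. Kl, the gene of the FGF23 co-receptor klotho, read 3.09 on every array, under the median.

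Adaptors and feedback inhibitors of receptor tyrosine kinases were read in the same way. Of 29 measured genes, 1 was lower in heparin than in control by 2-fold or more and 0 were higher. Of all measured genes 0.747% were lower and 1.06% higher. The median of the 29 was 0.00. The lower one was Pik3r1, the regulatory subunit of PI3-kinase, at 8.42 in control, 6.59 in heparin and 7.98 in peptide. Gab1, the docking protein that Met and Egfr use, read 9.78, 9.09 and 9.87, and was lowest with heparin. Lrig1, which promotes degradation of Egfr and Met, read 7.50, 6.98 and 7.76. The ERK-induced phosphatase Dusp5 read 10.70, 10.45 and 11.33, highest with peptide, and the FGF feedback inhibitor Spry1 read 8.72, 9.33 and 8.93, highest with heparin. Dusp6, the ERK phosphatase, was within 0.06 across the arrays.

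Promoters are shown for 4 of the genes past 1.5-fold in any comparison. They are a pair of vascular genes higher in heparin than in peptide (Kdr and Vegfc) and a pair of EGF receptor ligands lower there (Areg and Hbegf). Vegfc was 1.29-fold higher there and past 1.5-fold only against control. Each promoter is the 250 bases before a transcription start from RefSeq, in build GRCr8, with GC boxes in capitals. For Kdr the last 32 of these lie inside the gene's annotated span and are left out, which leaves 218. Kdr is at chr14:32572031-32615204, Vegfc at chr16:44445293-44560887, Areg at chr14:17256384-17265641 and Hbegf at chr18:28380337-28390220. The windows are chr14:32571813-32572030 (plus strand), chr16:44560888-44561137 (minus strand), chr14:17265642-17265891 (minus strand) and chr18:28390221-28390470 (minus strand).
Kdr: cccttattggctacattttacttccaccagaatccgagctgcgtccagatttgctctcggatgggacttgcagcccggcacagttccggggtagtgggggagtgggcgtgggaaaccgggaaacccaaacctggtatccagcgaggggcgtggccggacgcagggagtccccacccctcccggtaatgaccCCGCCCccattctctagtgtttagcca
Vegfc: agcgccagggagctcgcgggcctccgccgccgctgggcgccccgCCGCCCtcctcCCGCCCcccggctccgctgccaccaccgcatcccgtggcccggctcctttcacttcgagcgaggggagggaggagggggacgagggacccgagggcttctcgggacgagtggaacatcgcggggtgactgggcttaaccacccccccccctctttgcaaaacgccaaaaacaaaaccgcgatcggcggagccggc
Areg: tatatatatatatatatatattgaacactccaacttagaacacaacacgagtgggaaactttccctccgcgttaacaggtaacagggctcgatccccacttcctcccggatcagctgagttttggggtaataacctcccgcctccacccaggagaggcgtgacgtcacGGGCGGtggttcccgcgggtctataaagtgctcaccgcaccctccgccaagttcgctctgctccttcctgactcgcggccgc
Hbegf: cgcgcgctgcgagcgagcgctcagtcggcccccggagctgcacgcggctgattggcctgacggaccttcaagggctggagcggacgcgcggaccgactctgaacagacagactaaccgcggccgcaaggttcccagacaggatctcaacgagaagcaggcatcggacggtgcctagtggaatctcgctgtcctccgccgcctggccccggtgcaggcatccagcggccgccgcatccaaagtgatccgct
The Kdr and Areg windows hold 1 GC box each, Vegfc holds 2 and Hbegf none. The start of the Met window lies 27923 bases inside the gene, at chr4:46756823-46864041, so that window is not shown, and Angpt2 (chr16:77790760-77841241) and Mdk (chr3:98356789-98358960) were not among the promoters used here.

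Promoters of 64 of the 77 genes could be searched, on both strands, beside 27457 promoters of the same length. The GC box GGGCGG, a binding site of SP1-type factors, was in 34 of the 64 (53.1%) and in 32.4% of all. The hypoxia response core ACGTG was in 14 (21.9%) and in 16.9% of all, and the AP-1 site TGANTCA in 3 (4.69%) and in 6.36% of all. The interferon response element, TTTC followed by any 2 bases and TTTC, was in 2 (Fgf1 and Vegfa) and in 3.29% of all. The start used lies more than 100 bases from the outer end of the gene for 21 of the 64, among them Met and Fgf9 (1806 bases), so that those windows may not be the main promoters. In the other 43 the GC box was in 25 (58.1%). Of the 5 of these past 1.5-fold in any comparison, 3 held a GC box and 0 held any of the other motifs. None of the other motifs occurs in the 4 windows shown, so none overlaps a GC box there. A match of letters is a description and does not show that a factor binds.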

How the data were processed

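Per the labels' protocols, Trizol RNA of 3 kidneys per group was pooled in equal molar amounts, and biotin-labelled cRNA from 6 µg was hybridised to an Affymetrix rat array. The deposited values are log2 expression per probe set, made with GCRMA per the submitters' processing notes; its settings, and whether arrays were normalized together, are not stated in the sources used here. They were used as deposited. Of 31099 probe sets, 20832 had 1 symbol in the platform annotation of 2016, 436 had several and 9831 none. All 77 genes had a gene ID in the RefSeq table of GRCr8, with 0 under another symbol there.

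Values were compared as differences of log2 values between arrays, with a gene measured when both arrays reached their median over all probe sets. With 1 array per group no test, p-value or SD is possible, and the number of arrays limits the precision. Values within 0.0001 were called identical. Calls were counted at 2-fold and 1.5-fold and read beside all measured genes. The counting was run on simulated data with planted changes larger than 2-fold in bright genes, counted at 2-fold. That run does not test the 1.5-fold counts or the noise of real arrays. Alternatives were a filter at the 40th or 60th percentile or none, 32 added to unlogged values, quantile normalization, centring, the mean of all probe sets, and no _x_at or _s_at probe sets. The named genes are all members by rule, with values on every array for those past 1.5-fold, 12 with the highest means, and receptors; of each other list, up to 4 measured genes with the largest difference and those needed to show the range. The members, gene lists and comparisons were chosen with earlier results of these data known. Protein sequences were not used here. Python 3.11.15, numpy 2.4.6, pandas 2.3.3 and matplotlib 3.10.9 were used.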

Additional observations from a re-analysis of the deposited data

How the results depend on the processing

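The counts at 2-fold were the same under every alternative tried except 2. With the mean of all probe sets of a gene, 2 genes instead of 1 were at least 2-fold lower in heparin against control. With a threshold of 1.5-fold, 4 were higher and 3 lower in heparin against control, 1 was lower in peptide against control (0 higher), and 2 were higher and 3 lower in heparin against peptide. The median difference, 0.00 as reported, was 0.043, -0.0089 and 0.052 under quantile normalization and 0.064, -0.012 and 0.062 with centring, for heparin against control, peptide against control and heparin against peptide; the other alternatives left it at 0.00. Of 13 differences past 1.5-fold, 101 of 104 values under 8 alternatives stayed past it and 0 reversed. Many of these values could not move, so the count says little about stability. The filters and the removal of _x_at or _s_at sets left each value as it was. Averaging could alter only the genes with several probe sets, Fgf9, Igfbp3 and Kdr. The exceptions were Fgf9 in heparin against control (0.47) and Kdr in heparin against peptide (0.44) with the mean of all probe sets, and Vegfc in heparin against control (0.50) with 32 added. The mean of all probe sets also added Fgf1 to the genes past 1.5-fold lower in heparin against control (4 instead of 3) and Igf2r to those in heparin against peptide (4 instead of 3). With quantile normalization and with centring, Flt1 also passed 1.5-fold against control, and 5 genes instead of 2 were higher in heparin than in peptide, with Flt1, Pdgfra and Tek added. Centring turned the split of all genes past 1.5-fold in heparin against control from 281 higher and 311 lower to 339 and 241, and in heparin against peptide from 150 and 422 to 195 and 321. With no filter or one at the 40th percentile, genes under the median joined those past 1.5-fold: Hgf higher in heparin against control (5 instead of 4) and against peptide (3 instead of 2), and Fgf23 lower in heparin (4 instead of 3) and in peptide (2 instead of 1) against control. No paired analysis was possible because each group has 1 array. Values near the median, such as those of Angpt1, lie closest to background and are the least certain.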
